A study of Mus musculus with 6 samples.

Results

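Well-known transcriptional targets of the tumour suppressor p53 were followed by name in RNA-seq of whole mouse embryos: *Cdkn1a*, *Mdm2*, *Bax*, *Ccng1*, *Eda2r*, *Trp53inp1*, *Phlda3*, *Zmat3*, *Aen* and *Pmaip1*. They were listed by name, and no measured value entered the rule, although earlier results of these data were known when they were chosen. All 10 of 10 were among the 55401 gene identifiers of the count table, and all 10 were among the 16784 genes with enough counts to be tested. The embryos were collected at E10.5 and were either wild-type (WT, 3 libraries) or carried *Mir483* 5C (3 libraries). The 5C allele is a tandem array of 5 copies of the microRNA gene *Mir483*, each with flanking intron, placed at its own position in the *Igf2* locus by cassette exchange in C57BL/6N embryonic stem cells. It was inherited from the father, whose *Igf2* copy is the active one, and the WT embryos were littermates on a C57BL/6J background. Each library was made from a pool of 2 embryos, so differences between single embryos are averaged within it.

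The transcription factor p53 is held at a low level by the ubiquitin ligase Mdm2 and is stabilised when DNA is damaged or ribosome production or replication is disturbed. It then binds pairs of short repeated motifs near its targets, whose products stop the cell cycle, repair DNA, open the mitochondrial route to apoptosis or switch p53 off again. In the mouse embryo this response is known from mutants in which growth arrest or death at midgestation depends on p53, and *Cdkn1a*, *Mdm2*, *Ccng1*, *Eda2r* and *Phlda3* are among the transcripts commonly used to read it.

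The sequences below show matches to the p53 motif near 5 of these genes, and the mature microRNAs of the 5C allele. In RefSeq promoter windows (GRCm38.p6, 250 bases before to 50 bases after a transcription start) 7 of the 10 genes had a sequence, and 5 of these 7 held at least 1 exact match to the p53 consensus half-site on either strand, against 9.55% of 27025 genes. The matches are shown in capitals, with 10 bases on each side and on the strand of the gene.
Cdkn1a, upstream match, chr17:29090896-29090925, plus strand: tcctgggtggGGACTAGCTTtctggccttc
Cdkn1a, downstream match, chr17:29090918-29090947, plus strand: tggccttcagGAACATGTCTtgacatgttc
Mdm2, chr10:117710925-117710954, minus strand: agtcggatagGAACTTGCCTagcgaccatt
Ccng1, chr11:40755452-40755481, minus strand: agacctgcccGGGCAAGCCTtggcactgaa
Bax, chr7:45467080-45467109, minus strand: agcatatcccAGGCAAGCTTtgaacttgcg
Aen, chr7:78895927-78895956, plus strand: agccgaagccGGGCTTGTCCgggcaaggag
The *Cdkn1a* matches form a pair 12 bases apart with 0 mismatches, and the downstream one was also followed without a gap by a further half-site, in a pair with 1 mismatch over 20 bases. *Bax* was the other gene with a pair of half-sites at most 13 bases apart and with at most 2 mismatches, which 2.47% of all genes had. The 5C allele encodes the following mature microRNAs (RefSeq, GRCm38.p6, minus strand), with the seed in capitals.
miR-483-3p, chr7:142654932-142654952: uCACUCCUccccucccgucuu
miR-483-5p, chr7:142654968-142654989: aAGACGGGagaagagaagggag
The letters complementary to these seeds, AGGAGTG and CCCGTCT, were searched on the transcribed strand of annotated 3′ UTRs of the longest coding transcript. Of the 10 genes 9 had such a UTR, and 0 of the 9 held either set of letters. Among 13894 tested coding genes 12.5% held AGGAGTG and 3.45% held CCCGTCT. A match or its absence describes these windows and says nothing of binding in the embryos.

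The libraries held 6357343 to 19151368 counts in genes, with the shallowest being WT replicate 3. Levels are given as CPM, read counts scaled to the library total and by TMM factors that correct for differences in composition. A count of 3 corresponded to 0.157 to 0.479 CPM, and the p53 targets lay far above this, with 46 to 1820 counts and 4.87 to 115 CPM per library. *Mir483* itself, counted from its gene in this messenger RNA library, was at 0.577, 0.429 and 0.319 CPM in the WT group and at 5.15, 4.35 and 2.56 CPM in the 5C group, in the order of replicates 1 to 3 as everywhere below, and the groups did not overlap. Its log2 fold change was 3.05 (SE 0.36, adjusted p = 0.169 by edgeR's quasi-likelihood test), from 2 to 11 counts in WT and 36 to 85 counts in 5C. Markers of neural tube, heart, somite and limb, and primitive red cells were present in every library. All 10 yolk sac endoderm markers had at least 1 count in every library, and their summed level was 6778, 285 and 564 CPM in WT embryos and 216, 198 and 1354 CPM in 5C embryos. Since these are bulk samples, fewer cells of a type and less RNA per cell cannot be told apart.

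None of the 10 p53 targets passed the test between 5C and WT embryos. With edgeR's quasi-likelihood test and Benjamini-Hochberg adjustment, 0 of 10 passed both limits of a call, an adjusted p under 0.05 together with a change of more than 1.5-fold, and their adjusted p-values ran from 0.781 to 0.9998. This has to be read against the whole table, in which 0 of 16784 genes (0.0%) were called by the same rule. Of these genes 1011 had an unadjusted p under 0.05. DESeq2 called 11 genes and limma-voom 0, in no case a p53 target. The study itself reported differentially expressed genes between these genotypes at the same 2 limits, and why the fit used here called 0 was not tested. At an unadjusted p under 0.05 there were 2 of the 10, *Zmat3* on the lower side and *Ccng1* on the higher side, where 6.02% of all tested genes reached that level (3.47% lower in 5C and 2.55% higher in 5C). This count rested on single libraries: it was 0 without WT replicate 3, without 5C replicate 2 or without 5C replicate 3, and 1 without WT replicate 1, where the gene was *Trp53inp1*. In 0 of 10 did the WT and 5C libraries separate completely, compared with 11.4% of all tested genes. The signs were evenly divided, with 5 lower and 5 higher in 5C, beside 50.7% of all tested genes that were lower. The median log2 fold change of the 10 was -0.02 and that of all tested genes was -0.00.

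**Figure D1:**
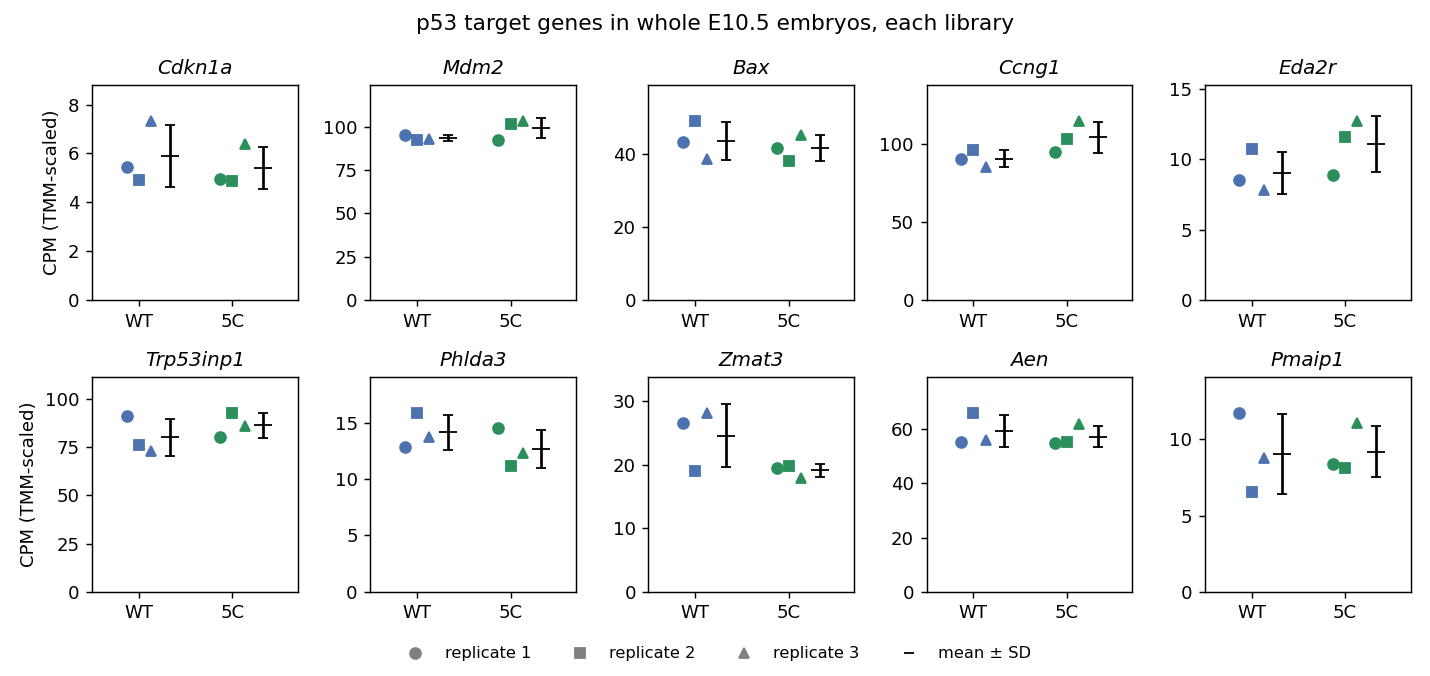
TMM-scaled CPM (vertical axes, from 0, each gene on its own scale) of the p53 targets in the 3 WT libraries (blue) and the 3 5C libraries (green); the marker shape gives the replicate and the bar the mean ± SD. The groups overlap in all 10 panels; relative to their level, the means lie furthest apart at *Zmat3*, 24.6 against 19.1 CPM, and *Eda2r*, 9.03 against 11.1 CPM.

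*Cdkn1a* (ENSMUSG00000023067, GRCm38 chr17:29090976-29100727, plus strand) encodes p21, the cyclin-dependent kinase inhibitor through which p53 arrests the cell cycle. It was at 5.46, 4.89 and 7.34 CPM in WT replicates 1, 2 and 3 and at 4.97, 4.87 and 6.41 CPM in 5C. The third replicate was the highest in both genotypes and the remaining 4 libraries lay close together, so the groups overlapped. The means were 5.90 ± 1.28 CPM (SD, n = 3) and 5.41 ± 0.861 CPM (SD, n = 3). This gave a log2 fold change of -0.10 (SE 0.20, 95% interval -0.55 to 0.36), which corresponds to 0.683-fold to 1.28-fold. Of its exon bases 7.68% lie opposite the predicted gene AC167363.2, which was at 0.315 CPM or less in every library.

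*Ccng1* (ENSMUSG00000020326, chr11:40748552-40755311, minus strand), whose product cyclin G1 acts with a phosphatase in the feedback on Mdm2 and p53, had the smallest unadjusted p of the genes higher in 5C. It stood at 90.4, 96.2 and 85.4 CPM across the WT libraries and at 94.8, 103 and 115 CPM across the 5C libraries. The highest WT library, replicate 2, exceeded the lowest 5C library, replicate 1, and the remaining 5C libraries were above all of WT. The difference on the log2 scale was 0.20 (SE 0.09, 95% interval 0.01 to 0.39), or 1.15-fold. Its unadjusted p was 0.0445 and the adjusted one 0.781. The log2 difference was 0.11 when counts were corrected for GC content, with an unadjusted p of 0.173, and 0.12 without 5C replicate 3.

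*Mdm2* and *Trp53inp1*, whose products act on p53 itself, had small differences, and their groups overlapped. *Mdm2* (ENSMUSG00000020184, chr10:117688875-117710758, minus strand), the ligase that marks p53 for destruction, was at 95.5, 92.6 and 92.9 CPM in the WT group and at 92.5, 101.9 and 103.5 CPM in the 5C group. Replicate 1 of 5C was the lowest of the 6 libraries and the remaining 5C libraries were the highest. For *Mdm2* the log2 fold change was 0.08 (SE 0.07), and the interval of 0.952-fold to 1.18-fold was the narrowest of the 10. *Trp53inp1* (ENSMUSG00000028211, chr4:11156431-11174379, plus strand), a stress-induced nuclear protein that promotes p53 activity, had 91.1, 76.0 and 73.2 CPM in WT embryos and 80.2, 93.0 and 86.3 CPM in 5C embryos. WT replicate 1 was nearly as high as the highest 5C library, and the log2 fold change was 0.10 (SE 0.10, unadjusted p = 0.309 by edgeR's quasi-likelihood test). Without that WT library it was 0.21.

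For the death arm genes *Bax* and *Pmaip1* no direction was resolved, and they changed sign in 1 and 6 of 16 alternative fits. *Bax* (ENSMUSG00000003873, chr7:45461697-45466898, minus strand), which permeabilises the outer mitochondrial membrane, was at 43.1, 48.9 and 38.6 CPM across the WT libraries and at 41.4, 38.0 and 44.99 CPM across the 5C libraries. *Pmaip1* (ENSMUSG00000024521, chr18:66458533-66465565, plus strand) encodes Noxa, a BH3-only protein that neutralises Mcl1, and was at 11.8, 6.53 and 8.77 CPM in the WT group and at 8.36, 8.11 and 11.1 CPM in the 5C group. For both genes the highest and lowest WT libraries enclosed all 5C libraries or all but 1. The log2 fold change of *Bax* was -0.08 (SE 0.10, 0.807-fold to 1.12-fold), and 12.2% of its exon bases are shared with the overlapping gene Gm45808, listed at 0 in every library. How reads in these shared bases were counted was not examined, so the 0 does not show that *Bax* lost no reads there. *Pmaip1* was the least precise of the 10, with a log2 fold change of 0.01 (SE 0.22, 0.713-fold to 1.43-fold).

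*Aen* (ENSMUSG00000030609, chr7:78895854-78911209, plus strand) encodes a nuclease that acts in p53-dependent apoptosis. Its levels were 55.3, 65.9 and 56.0 CPM in WT embryos and 54.7, 55.1 and 61.6 CPM in 5C embryos, so that 4 libraries lay near the bottom of the range and WT replicate 2 stood highest. Its log2 fold change was -0.05 (SE 0.09, 0.838-fold to 1.12-fold). *Phlda3* (ENSMUSG00000041801, chr1:135766119-135769136, plus strand), a repressor of Akt signalling, had 12.8, 15.9 and 13.7 CPM across the WT libraries and 14.5, 11.2 and 12.3 CPM across the 5C libraries. Replicate 2 was the highest WT library and the lowest 5C library, and the log2 fold change was -0.15 (SE 0.14, 0.722-fold to 1.12-fold).

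*Eda2r* (ENSMUSG00000034457, X:97333840-97377216, minus strand) encodes a receptor of the tumour necrosis factor family that binds ectodysplasin A2. It was at 8.55, 10.7 and 7.82 CPM in the WT group and at 8.91, 11.6 and 12.7 CPM in the 5C group. The middle 5C library and the highest were above all WT libraries, while the lowest 5C library lay within the WT range. Its log2 fold change was 0.28 (SE 0.18), with an interval of 0.923-fold to 1.60-fold, the only one of the 10 that reached past 1.5-fold higher. The estimate was 0.17 without 5C replicate 3 and 0.42 without 5C replicate 1, where the unadjusted p was 0.0397. The gene is X-linked, and the pools were not alike in Y-linked RNA: the Y-linked *Ddx3y* was at 49.2, 0.944 and 49.5 CPM in WT embryos and at 55.9, 0 and 41.6 CPM in 5C embryos, although the study's methods describe the embryos as male. Replicate 2 was thus low in Y-linked RNA in both genotypes. The X-linked *Xist* RNA was present in all libraries. The 5 sex-linked markers, *Xist* among them, summed to 724, 854 and 885 CPM in WT and to 707, 914 and 770 CPM in 5C. Y-linked RNA therefore does not show that a pool was male only, and the part of sex in the *Eda2r* values was not tested.

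*Zmat3* (ENSMUSG00000027663, chr3:32334792-32366014, minus strand), a zinc finger protein that binds RNA and shapes splicing downstream of p53, gave the lowest estimate. It was at 26.6, 18.98 and 28.2 CPM across the WT libraries and at 19.5, 19.9 and 18.01 CPM across the 5C libraries. The 5C libraries lay within 2 CPM of each other, and WT replicate 2 fell among them while WT replicates 1 and 3 were higher. The log2 fold change was -0.36 (SE 0.15, 95% interval -0.68 to -0.03), or 0.781-fold. Its unadjusted p was 0.0357 and the adjusted one 0.781. Leaving out WT replicate 2 moved it to -0.51 and leaving out WT replicate 3 to -0.27. The summed yolk sac markers were also higher in WT replicates 1 and 3 than in WT replicate 2, but were highest among 5C libraries in replicate 3, where *Zmat3* was lowest. Their part in the difference was not tested.

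The intervals set what these libraries could and could not have shown. For 9 of the 10 genes the 95% interval ended below 1.5-fold higher, and for 8 it stayed within 1.5-fold in both directions, the exceptions being *Eda2r* above and *Zmat3* below, at 0.623-fold. The median SE was 0.12 on the log2 scale. Leaving out 1 library at a time moved *Phlda3* between -0.26 and -0.05 and *Mdm2* between 0.05 and 0.13. The members summed to 430 ± 15.5 CPM in WT (SD, n = 3) and 446 ± 26.0 CPM in 5C (SD, n = 3), and the 3 WT sums of 440.5, 436.6 and 411.9 CPM overlapped the 5C sums of 419.8, 446.4 and 471.8 CPM. No library was high for all of them: 5C replicate 3 was above the mean of the 6 libraries for 8 of the 10 genes, 5C replicate 1 for 1, and the other libraries for 3 or 4.

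**Figure D2:**
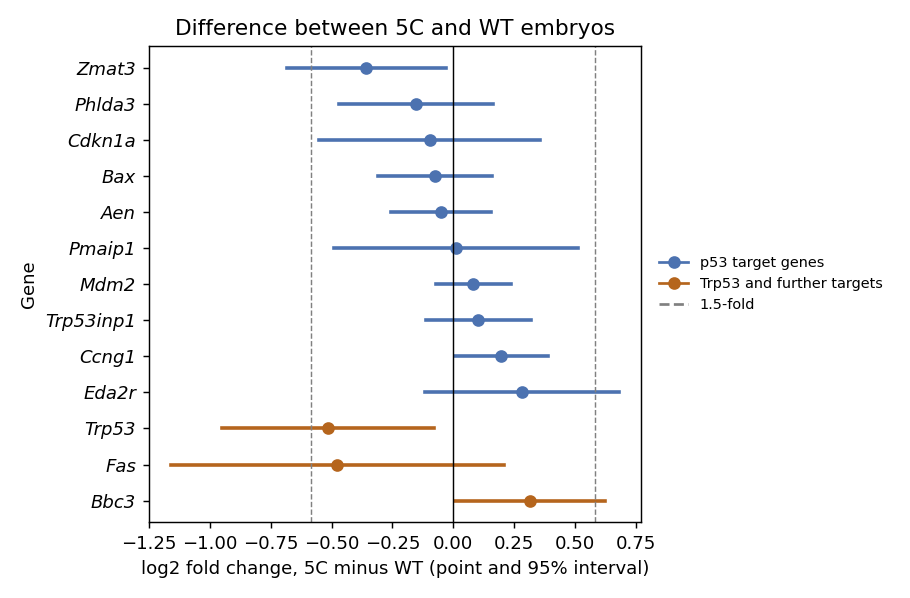
Log2 fold change, 5C minus WT (horizontal axis, point with 95% interval) for the 10 p53 targets (blue) and for *Trp53*, *Fas* and *Bbc3* (orange); dashed lines mark 1.5-fold in either direction. Zero lies inside 8 of the 10 blue intervals, and the *Zmat3* and *Ccng1* intervals end just short of it at -0.03 and 0.01.

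Per kilobase of exon, with the exons of all annotated transcripts of a gene merged, the targets spanned 17.4-fold. Merged exons can be longer than the transcript in use, by an amount that differs between genes, so comparisons between genes are approximate. *Ccng1* at 27.7 ± 2.95 and *Bax* at 27.0 ± 2.61 CPM per kb (SD over all 6 libraries) were highest on this scale and overlapped. They stood at the 88.9th and 88.6th percentile of tested genes. *Mdm2* followed at 18.98 ± 0.979 CPM per kb and stood clear of both *Bax* above and *Trp53inp1* below it. *Trp53inp1* at 12.9 ± 1.25, *Aen* at 10.02 ± 0.797 and *Phlda3* at 8.59 ± 1.07 CPM per kb each overlapped the next in order, and *Phlda3* was clear of *Pmaip1*. The lowest levels were those of *Pmaip1* at 3.33 ± 0.719, *Zmat3* at 1.91 ± 0.383, *Eda2r* at 1.71 ± 0.328 and *Cdkn1a* at 1.59 ± 0.285 CPM per kb, and each overlapped its neighbour. On this scale *Cdkn1a*, the classical arrest gene, had the lowest mean over the 6 libraries, with 27.4% of tested genes below it. In WT alone the mean of *Eda2r* was lower, at 1.53 against 1.66 CPM per kb. The length of a single transcript was not used, and the order could differ with it.

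**Figure D3:**
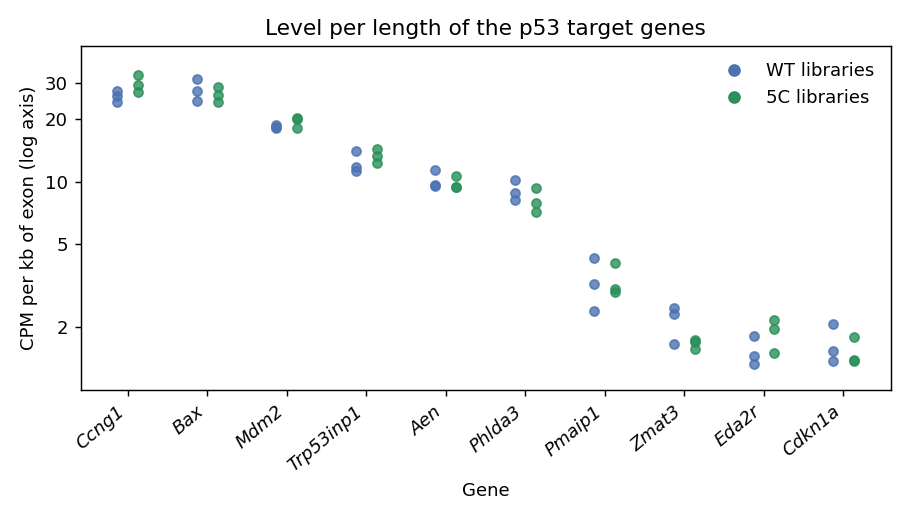
Level per exon length (CPM per kb, log axis) of the p53 targets in order of their mean, with 1 point for each WT library (blue) and each 5C library (green). The order runs from *Ccng1* at 27.7 CPM per kb down to *Cdkn1a* at 1.59 CPM per kb, and the points of both genotypes overlap for every gene.

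The rest of the pathway was examined through 4 lists that hold 104 genes, 100 of them tested. Of these 54 were lower and 46 higher in 5C, 0 were called, and 7 had an unadjusted p under 0.05, or 7.0% beside 6.02% of all genes. The median log2 fold change was -0.01, and 13 of the 100 separated completely between the groups, beside 11.4% of all tested genes.

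Among p53 and its regulators 8 of 18 tested genes were lower and 10 higher. Of the 18, 4 had an unadjusted p under 0.05 (3 lower, 1 higher), or 22.2% beside 6.02% of all tested genes. *Trp53*, which encodes p53, was at 42.4, 23.4 and 41.3 CPM in the WT group and at 26.2, 23.6 and 24.9 CPM in the 5C group. As for *Zmat3*, the 5C libraries lay close together at the level of WT replicate 2, and WT replicates 1 and 3 were higher. The log2 fold change was -0.52 (SE 0.19, adjusted p = 0.781), and it was -0.35 without WT replicate 1 and -0.75 without WT replicate 2. With no filter on low counts its adjusted p by edgeR was 0.00126, in a range of 0.00126 to 0.9999 over the alternatives, at a fold change under 1.5. That setting called 319 genes over the whole table, where the fit used here called 0. Of the 40-base words in the longest coding transcript of *Trp53* 12.3% also occur in the pseudogene Trp53-ps. The pseudogene was counted at 0.0859 CPM or less in every library, and how reads that match both were counted was not examined. The DNA damage kinase gene *Atr* was at 198, 203 and 213 CPM in WT embryos and 230, 240 and 237 CPM in 5C embryos, without overlap (log2 fold change 0.21, SE 0.06, adjusted p = 0.781). The acetyltransferase genes *Crebbp* (132, 124 and 153 against 120, 117 and 111 CPM) and *Ep300* (108, 89.0 and 111 against 92.5, 83.8 and 80.2 CPM), whose products are p53 coactivators, had log2 fold changes of -0.23 and -0.26 at the same adjusted p, and *Ep300* overlapped.

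A further list of p53 targets gave 22 of 38 tested genes lower and 16 higher, beside 50.7% of all tested genes that were lower. At an unadjusted p under 0.05 there was 1 of the 38, or 2.63% beside 6.02% of all tested genes. This was *Bbc3*, which encodes the BH3-only protein Puma, at 6.82, 6.87 and 6.38 CPM across the WT libraries and 7.94, 8.71 and 8.47 CPM across the 5C libraries. All 5C libraries were above all WT libraries, with a log2 fold change of 0.32 (SE 0.14, adjusted p = 0.781). The death receptor gene *Fas* was low, at 1.26, 1.37 and 1.44 CPM in the WT group and 0.667, 1.28 and 0.997 CPM in the 5C group, and its log2 fold change of -0.48 had an SE of 0.30. It was -0.24 without 5C replicate 1 and -0.70 without 5C replicate 2. The antiproliferative gene *Btg2* (log2 fold change 0.16) and the ubiquitin ligase gene *Trim32* (-0.17) were next by p-value, with unadjusted p of 0.0866 and 0.0941.

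For the intrinsic apoptosis machinery 14 of 24 tested genes were lower and 10 higher, beside 50.7% of all tested genes that were lower. *Bcl2*, an inhibitor of apoptosis, was the single gene at an unadjusted p under 0.05, with 39.9, 38.8 and 42.4 CPM in WT embryos and 43.9, 53.6 and 46.4 CPM in 5C embryos (log2 fold change 0.25, SE 0.09, adjusted p = 0.781), and the log2 fold change was 0.16 without 5C replicate 2. *Cycs*, the gene of cytochrome c, was also without overlap, at 12.7, 12.5 and 10.53 against 12.97, 15.2 and 15.7 CPM. The inhibitor *Bcl2l1* had the most negative log2 fold change of the list, -1.004 (SE 0.47), which was that of 1 library: it was at 49.7, 47.1 and 199 CPM across the WT libraries and 49.0, 48.4 and 46.3 CPM across the 5C libraries. Without WT replicate 3 the log2 fold change was -0.02.

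Cell cycle genes that p21 silences through the DREAM repressor complex were split evenly, 10 lower and 10 higher of 20 tested, with a median log2 fold change of 0.00. *Cdc20*, the activator of the anaphase-promoting complex, was at 127, 123 and 122 CPM in the WT group and 115, 110 and 101 CPM in the 5C group, without overlap (log2 fold change -0.19, SE 0.07, adjusted p = 0.781). The mitotic kinase gene *Plk1* (log2 fold change -0.20, and -0.11 without WT replicate 1) and the phosphatase gene *Cdc25a* (-0.13) came next, with unadjusted p of 0.0567 and 0.0818.

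**Figure D4:**
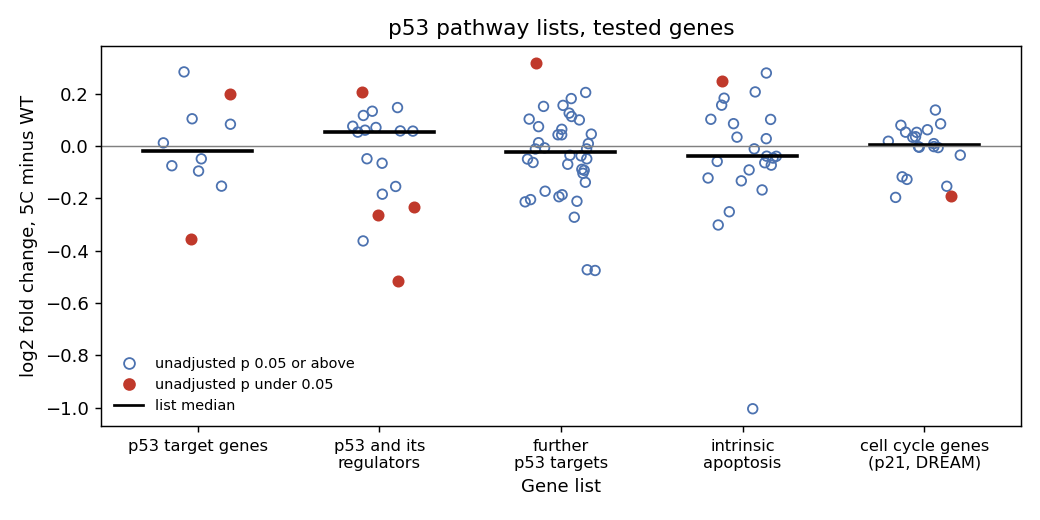
Log2 fold change, 5C minus WT (vertical axis), of each tested gene in the 10 p53 targets and the 4 further lists of the pathway; filled red points had an unadjusted p under 0.05 and black bars are list medians. The medians lie between -0.04 and 0.06, and the lone point at -1.004 is *Bcl2l1*, which was high in WT replicate 3 alone.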

How the data were processed

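Poly(A) RNA from 6 libraries of whole E10.5 embryos, each a pool of 2, was sequenced on strand-marking TruSeq libraries. The deposited values are raw counts per Ensembl gene, which the authors made with STAR against GRCm38; the strand setting of the counting is not given in the sources used here. Groups and replicate numbers come from the sample titles. Nothing in the labels says that replicates come from separate litters, so p-values measure the spread between these libraries, which may be partly technical.

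Counts were tested as deposited with edgeR 4.0.16 (R 4.3.3): filterByExpr, TMM scaling, quasi-likelihood F-test, 2-sided, Benjamini-Hochberg adjustment over 16784 genes. A gene was called when its adjusted p was under 0.05 and it differed by more than 1.5-fold. SE and 95% intervals come from the same fit, whose biological coefficient of variation was 13.6%. Intervals and the floor of 3 counts cover these libraries and counting only. Symbols and exon lengths were taken from GENCODE M21, which held 55141 of the 55401 identifiers. No library pair agreed within sampling noise (smallest chi-square statistic per gene 5.26, where sampling alone gives about 1).

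The members and lists were chosen with earlier results of these data known. The genes named were the 10 members, *Mir483*, *Trp53*, *Bbc3*, *Fas* and, in each further list, the 3 with the smallest unadjusted p. Other scalings, count filters, DESeq2 1.42.0, limma-voom 3.58.1, robust moderation, a replicate block, GC offsets and leaving out each library were tried. Of marker lists, decidual markers summed to 16.0, 15.6 and 53.3 CPM in WT replicates 1 to 3 and to 47.6, 16.5 and 60.9 CPM in 5C. Neural tube markers summed to 588 to 665, somite and limb 331 to 376 and primitive erythroid 8138 to 15899 CPM per library. Heart markers summed to 165, 259 and 185 CPM in WT and to 156, 142 and 159 CPM in 5C, without overlap. The sums of the other marker lists overlapped between the groups. Any part of the heart difference in the p53 targets was not tested.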

Additional observations from a re-analysis of the deposited data

How the results depend on the processing

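Of the p53 targets 0 were called under any of the 16 alternatives, and the smallest adjusted p was 0.288 (*Zmat3* without WT replicate 2). Over all genes the calls numbered 319 with no count filter, 11 with DESeq2, 3 with robust moderation and 0 to 1 when a library was left out. Among the further lists, *Bcl2l1* was called with no count filter (adjusted p = 3.61e-24 by edgeR, 3.61e-24 to 0.9999 over the alternatives). The count of p53 targets at an unadjusted p under 0.05, 2 in the fit described above, was 1 with limma-voom, 1 with GC offsets, 0 with a replicate block, 1 with a replicate block and GC offsets, and 0 to 2 when a library was left out. *Zmat3* was among them in 10 of the 16 alternatives and *Ccng1* in 8. The replicate block changed no call of a p53 target. Same-numbered libraries did not all deviate together (correlations -0.17, 0.20 and -0.17 across genes). Replicate 2 was low in *Ddx3y* in both genotypes, so whether the numbers pair the samples is not known. The median log2 fold change ran from -0.12 (without 5C replicate 3) to 0.032 when a library was left out. Signs turned 10 times, in 5 genes. *Pmaip1* was at -0.0023 with limma-voom, -0.068 with GC offsets, -0.042 with a replicate block and GC offsets, and between -0.19 and 0.30 when a library was left out. *Trp53inp1* was at -0.0034 with GC offsets, and over the fits without 1 library *Bax* ran from -0.15 to 0.016 and *Aen* from -0.11 to 0.040 (both highest without WT replicate 2) and *Cdkn1a* from -0.23 to 0.054 (highest without WT replicate 3). The remaining 150 of 160 member values kept their sign and stayed uncalled. The cause of these shifts was not tested. *Cdkn1a*, *Eda2r* and *Pmaip1*, the 3 with the lowest CPM, had SEs of 0.18 to 0.22 on the log2 scale, which hold both counting error and the spread between libraries.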
